A study of Homo sapiens with 40 samples.

Results

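The genes described here encode ribosomal proteins and the factors that bind the ribosome during translation, measured in 2 human lymphoma cell lines. They were chosen by symbol alone: RPL, RPS, MRPL, MRPS, EIF or EEF followed by a digit, plus RPLP0, RPLP1, RPLP2 and RPSA, without the RPS6K kinases. The rule found 67 genes on 141 probes, of 4604 genes on 10169 probes that carry a single gene symbol. There were 29 cytosolic ribosomal protein symbols on 69 probes, 12 mitochondrial ribosomal protein symbols on 18 probes and 26 translation factor symbols on 54 probes. The cytosolic class holds a pseudogene, RPL21P106, and the paralogs RPL22L1 and RPL7L1. The factor class holds a methyltransferase (EEF2KMT), 3 kinases (EEF2K, EIF2AK2 and EIF2AK3), a repressor (EIF4EBP1) and a Y-linked gene that is counted without values.

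OCI-Ly3 and OCI-Ly10 are established cell lines from diffuse large B cell lymphoma of the activated B cell-like subgroup, and the study followed STAT3 and NF-kB signalling in them on 40 two-colour arrays. OCI-Ly10 cells received IL-6 at 50 ng/ml (8 arrays, 0.5 to 24 h), JAK inhibitor I at 5 uM (4 arrays, 3 and 6 h) or a pool of STAT3 siRNAs at 4 uM (5 arrays, 8 to 48 h), and OCI-Ly3 cells received IL-10 at 50 ng/ml (10 arrays, 1 to 96 h). Stably transfected derivatives of both lines expressed an IkB super-repressor, a form that holds NF-kB inactive, after doxycycline at 20 ng/ml (9 arrays of OCI-Ly3, 1 to 6 h, and 4 of OCI-Ly10, 1.5 to 24 h). Each array set the Cy5-labelled treated cells against the Cy3-labelled control of the same line: untreated cells, uninduced cells, or cells electroporated with no siRNA. No array carried a non-targeting siRNA or doxycycline without the super-repressor, so those influences cannot be told apart from the treatment. The labels do not say whether replicates came from separate cultures, so p-values may measure technical spread only.

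A ribosome is built from a small and a large subunit, each of ribosomal RNA and many small, very abundant proteins, while mitochondria keep ribosomes of their own whose proteins are made in the cytosol. Initiation begins when EIF4E binds the messenger's cap, EIF4G bridges it to the small subunit and the EIF3 complex, and EIF2 brings the initiator tRNA; EEF1 then delivers each further tRNA. Growth signals through the mTOR kinase free EIF4E from the repressor EIF4EBP1 and favour messengers that open with a C and a run of pyrimidines, the TOP motif that marks cytosolic ribosomal protein messengers. MYC, active in many B cell lymphomas, drives genes for ribosome production and translation.

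The starts of the genes showed how the 3 classes differ in that motif. Promoters of 54 of the 67 members were matched by gene identifier in RefSeq (GRCh38.p14). A C at the annotated start followed by at least 4 further C or T on the gene's strand was present in 14 of 22 matched cytosolic genes (63.6%), 2 of 12 mitochondrial genes (16.7%) and 2 of 20 factors (10%), against 4.04% of 27305 RefSeq promoters. The 7 windows printed here belong to genes that recur in the results: the 5 cytosolic genes with some of the highest mean ratios, the elongation factor EEF1A1 and, for contrast, mitochondrial MRPL19. Each shows 15 bases before the annotated start and 15 from it on, on the gene's strand; capitals mark the pyrimidine run that begins at the start.
RPLP1: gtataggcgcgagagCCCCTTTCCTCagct
RPS21: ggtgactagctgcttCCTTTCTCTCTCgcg
RPL22L1: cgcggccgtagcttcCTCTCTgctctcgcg
RPL37A: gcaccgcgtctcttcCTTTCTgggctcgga
RPS29: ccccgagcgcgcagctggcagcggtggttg
EEF1A1: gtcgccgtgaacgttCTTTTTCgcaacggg
MRPL19: tgattactgggagctgtagtcttgacgtga
In GRCh38.p14 these lie at chr15:69452803-69452832 (plus strand), chr20:62387088-62387117 (plus), chr3:170870181-170870210 (minus), chr2:216498829-216498858 (plus), chr14:49598696-49598725 (minus), chr6:73521018-73521047 (minus) and chr2:75646768-75646797 (plus), in that order. RPS29 has no such run at its annotated start, and a missing match says only that these letters are not at that position.

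The genes checked for the siRNA and the super-repressor moved as labelled. In other windows STAT3 rose by 1.37 with IL-10, fell by 0.69 with the inhibitor and was at 0.08, uncalled, with IL-6. STAT3 fell by 1.59 ± 0.17 (log2, SE; limma adjusted p = 6.4e-05) with its siRNA, and NFKBIA, an NF-kB target, fell by 1.61 and 1.03 with the super-repressor in OCI-Ly3 and OCI-Ly10. Across all probes, replicates of a time point correlated at -0.016 to 0.676 over 14 pairs; the lowest pair was the 2 h super-repressor arrays of OCI-Ly3. The labels name no runs, so the arrays were cut into 12 runs wherever neighbouring array identifiers differed by more than 50. Each run holds 1 experiment, and replicates of a time point always lie in different runs.

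All values below are log2 ratios of treated over control, with base 2 assumed, since the base is not stated. The dyes were never swapped, and a gene that takes up 1 dye better carries that bias in every ratio to control; a bias common to all experiments cancels where 1 experiment is set against the other 5. In bulk RNA, a changed number of cells of a kind and a changed amount of RNA per cell cannot be told apart. A gene was called where the limma adjusted p over all genes tested was under 0.05.

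Taken by class median, cytosolic ribosomal protein genes sat above the control level on most arrays of each experiment, by small amounts. Their median log2 ratio was above 0 on 35 of 40 arrays, above the mitochondrial median on 36 and above the factor median on 37. By array it ran from -0.11 to 0.43 (median 0.12), against -0.27 to 0.26 (median -0.02) for the mitochondrial class and -0.26 to 0.29 (median -0.01) for the factors. In the super-repressor experiment in OCI-Ly3 the cytosolic median reached 0.05 to 0.43 over 9 arrays, all above 0. With IL-6 it was 0.05 to 0.24, above 0 on 8 of 8 arrays, and with IL-10 -0.08 to 0.35, above 0 on 7 of 10. It was above 0 on 4 of 4 super-repressor arrays of OCI-Ly10, 4 of 5 siRNA arrays and 3 of 4 inhibitor arrays.

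**Figure D1:**
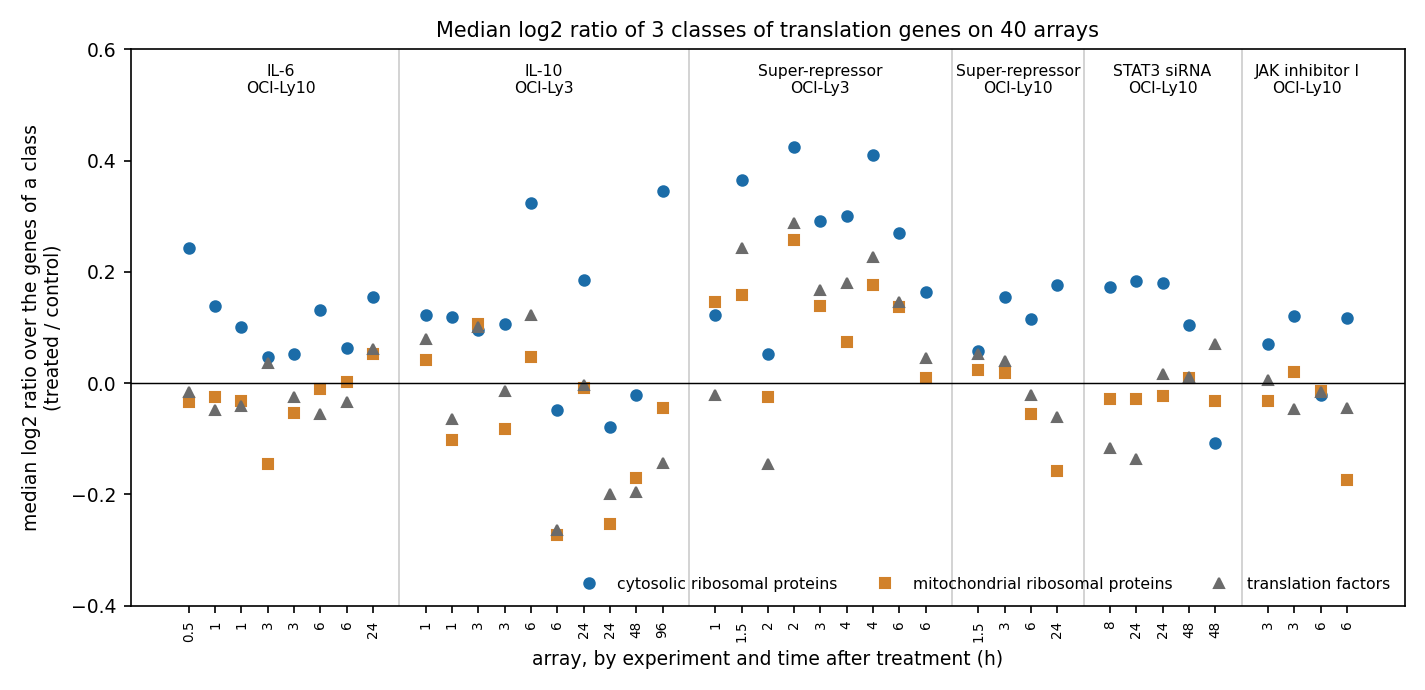
Median log2 ratio (treated over control, vertical axis) of the cytosolic ribosomal protein genes (blue circles), mitochondrial ribosomal protein genes (orange squares) and translation factors (grey triangles) on each of the 40 arrays, ordered by experiment and hours after treatment. The blue circles lie above 0 on 35 arrays, highest at 0.43 on a 2 h super-repressor array of OCI-Ly3.

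Single cytosolic genes showed the same tilt. RPL22L1, a paralog of the large subunit protein RPL22, ranged from -0.28 to 0.63 (median 0.25) and was above 0 on 38 of 40 arrays. RPL37A, of the large subunit, ranged from -0.11 to 0.64 (median 0.23) and was above 0 on 38. RPS29, a small subunit protein, ranged from -0.22 to 0.64 (median 0.27) and was above 0 on 37. On the second 48 h siRNA array RPL22L1, RPL37A and RPS29 were all below 0, at -0.28, -0.11 and -0.22. In all, 12 of 29 cytosolic genes were above 0 on at least 35 arrays, against 0 of 12 mitochondrial genes and 0 of 26 factors. The class was not uniform: RPL11, a large subunit protein, ranged from -0.78 to 0.34 (median -0.05) and was above 0 on 16 arrays, and RPL8 from -0.83 to 1.27 (median 0.01), above 0 on 21.

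Averaged over the 6 experiments, with a window of times from each, 16 of 28 cytosolic genes rose and 1 fell, where 29.1% of the 3106 genes tested were called (15.9% higher, 13.2% lower). The highest were RPLP1, of the ribosomal stalk, at 0.26 ± 0.04 (SE; adjusted p = 0.000217) and RPL22L1 at 0.26 ± 0.03 (2.87e-05), followed by RPS21 at 0.24 and RPS29 at 0.24. RPL11 fell by 0.12 ± 0.04 (0.0142). Of 10 mitochondrial genes none rose and 2 fell: MRPL19 by 0.25 ± 0.04 (0.000137) and MRPL11 by 0.15 ± 0.05 (0.0492). Of 22 factors 4 rose and 2 fell. In either direction, the called shares of the mitochondrial and factor genes are near or below that of all genes. The 3 measured subunits of the EEF1 complex all rose: EEF1B2 by 0.16 ± 0.04 (0.00878), EEF1D by 0.13 and EEF1A1, which carries tRNA to the ribosome, by 0.11 ± 0.03 (0.0249). EIF6, which keeps the large subunit from joining early, rose by 0.12 ± 0.03 (0.00832). EIF4G1, the scaffold of the cap complex, fell by 0.21 ± 0.06 (0.0112), and EIF2S1, the alpha subunit of EIF2, fell by 0.14 ± 0.03 (0.00151). A shared dye bias would stay in these means, and its part was not tested. With the run as a random block EEF1A1 (0.0659), EEF1D (0.063) and MRPL11 (0.102) lost their calls, and 14 of 28 cytosolic genes were called higher. Of all 3106 genes that block called 322 higher and 233 lower.

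By experiment, 17 of 28 cytosolic genes (60.7%) had a window mean above 0 in all 6, against 0 of 10 mitochondrial genes, 2 of 22 factors (9.09%; EEF1A1 and EEF1B2) and 6.05% of all 3106 genes. No cytosolic or mitochondrial gene was below 0 in all 6, while EIF2S1 and EIF4G1 were, beside 5.47% of all genes. The labels do not say whether experiments on 1 line share control RNA. Of the cytosolic genes with a matched promoter, the 14 with the pyrimidine run at the start had a median of 0.19 in the mean of 6 experiments and the 7 without it 0.09. In the super-repressor window of OCI-Ly3 those medians were both 0.31 (14 and 8 genes).

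**Figure D2:**
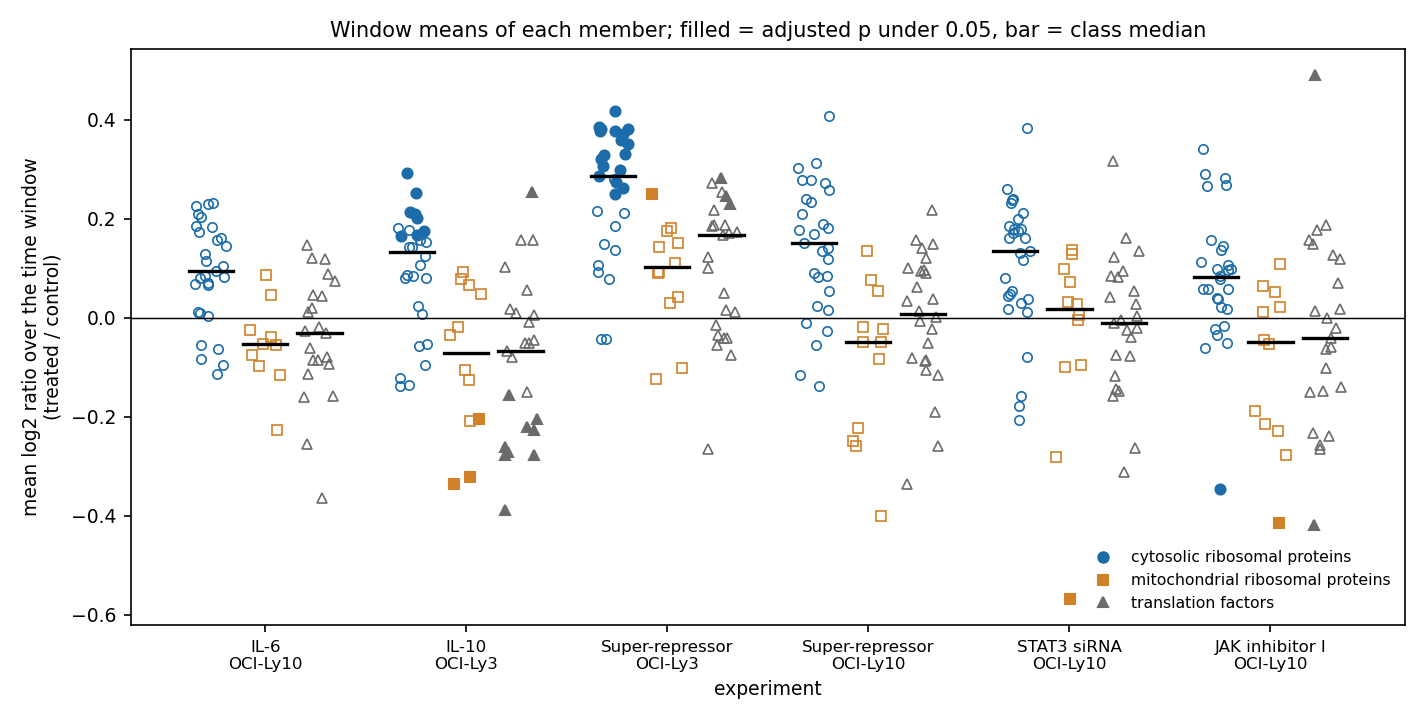
Mean log2 ratio (treated over control, vertical axis) of each member over the time window of each of the 6 experiments: cytosolic (blue circles), mitochondrial (orange squares) and factor genes (grey triangles), filled where the adjusted p was under 0.05, with the class median as a bar. The cytosolic median is above 0 in all 6 windows, and most filled points are in the super-repressor experiment in OCI-Ly3 and the IL-10 experiment.

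The super-repressor in OCI-Ly3 gave the broadest rise of the class. In the 2 to 6 h window (7 arrays) 18 of 29 cytosolic genes rose and none fell, where 14% of all 4390 genes tested were called (9.16% higher, 4.87% lower). The cytosolic median was 0.29 against -0.03 for all genes, and 27 of 29 genes were above 0. Both subunits took part: 8 of 15 large subunit and 10 of 14 small subunit symbols rose. RPS29 was 0.33 and 0.64 at 2 h, 0.45 at 3 h, 0.43 and 0.44 at 4 h, and 0.38 and 0.22 at 6 h. All 7 values exceeded 0, as did both earlier arrays (0.27 at 1 h and 0.35 at 1.5 h), and the window mean was 0.42 ± 0.06 (SE; adjusted p = 0.000447). RPL22L1 ranged from 0.20 to 0.56 (median 0.40) with a mean of 0.38 ± 0.07 (0.00175), and its paralog RPL22 from 0.13 to 0.43 (median 0.27) with a mean of 0.27 ± 0.05 (0.00313). RPL9, of the large subunit, was 0.28 and 0.42 at 2 h, 0.45 at 3 h, 0.26 and 0.26 at 4 h, and 0.28 and 0.26 at 6 h, with a mean of 0.33 ± 0.07 (0.00576). RPS6, the subunit phosphorylated downstream of mTOR, was at 0.18 ± 0.10 (0.205) and did not pass. RPL21 rose by 0.38 ± 0.07 (0.00295), while its pseudogene RPL21P106 was at -0.04 ± 0.10 (0.791); near-identical copies can share signal on an array, so values of single ribosomal protein genes are uncertain to that extent.

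In the same window 3 of 25 factors and 1 of 12 mitochondrial genes rose, and none fell. Those shares are near that of all genes, of which 402 of 4390 rose and 214 fell. EIF4E, the cap-binding protein, ranged from 0.05 to 0.39 (median 0.21), was above 0 on all 7 arrays and rose by 0.23 ± 0.06 (SE; 0.0152). Its paralog EIF4E2 was at -0.26 ± 0.12 (0.152). EIF3E, a subunit of the EIF3 complex, rose by 0.25 (0.04), and EEF1B2, which recharges EEF1A with GTP, rose by 0.28 ± 0.09 (0.0353), with arrays from -0.19 to 0.72. MRPS31 was the mitochondrial gene, at 0.07 to 0.53 (median 0.24) and a mean of 0.25 ± 0.06 (0.0161). EIF4G1 at -0.08 and its paralog EIF4G2 at 0.27 were not called, nor was the stress kinase EIF2AK2 at 0.05 or EIF2S1 at -0.04.

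Within the 2 array runs of this window the cytosolic median was 0.22 (3 arrays) and 0.34 (4 arrays). All 18 called cytosolic genes were above 0 in both runs, and EEF1B2 was not (-0.01 and 0.50). With the run as a random block, 6 of the 22 calls among members remained: RPL22, RPL22L1, RPL9, RPS16, RPS20 and RPS29. Of all 4390 genes that block called 73 higher and 30 lower. The 2 h arrays differed most, with cytosolic medians of 0.05 and 0.43; without the lower the calls numbered 30, and without the higher 12.

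Set against the other 5 experiments, which removes a bias common to all, 9 of 60 members were higher with the super-repressor in OCI-Ly3 and none lower. Of 3106 genes 14% were called (9.59% higher, 4.38% lower), so the share of members called in either direction is near that of all genes. All 3 classes shifted alike, with medians of 0.18 (cytosolic, 28 genes), 0.19 (mitochondrial, 10) and 0.18 (factors, 22), against 0.03 over all genes. The 4 cytosolic genes were all of the large subunit: RPL9 at 0.37 ± 0.08 (SE; adjusted p = 0.00651), RPL11 at 0.31 ± 0.08 (0.0224), RPL7L1 at 0.29 (0.0478) and RPL22 at 0.25 ± 0.06 (0.0133). RPL11 and RPL9 were not among the genes high in every experiment, and their means over the 6 were -0.12 and 0.02. The super-repressor window ratio of RPL11 was 0.14 and not called. In the other 5 windows RPL11 ran from -0.35 (inhibitor) to -0.06 (IL-6). RPS29 reached 0.22 ± 0.07 (0.0501) and RPL21 0.25 ± 0.08 (0.0502), just outside the threshold. MRPL19 was higher by 0.43 ± 0.09 (0.00606) and MRPS31 by 0.24 (0.0356). The super-repressor window ratio of MRPL19 was 0.11 and not called. In the other 5 windows MRPL19 ran from -0.57 (siRNA) to -0.08 (IL-6). Of the factors EIF5, which triggers GTP hydrolysis on EIF2, was higher by 0.34 (0.0265), EIF3E by 0.28 (0.0403) and EIF4E by 0.24 ± 0.07 (0.0257). With the run as a block, RPL9 alone passed (0.0463), and leaving out 1 array gave between 2 calls (without the first 6 h array) and 27 (without the first 2 h array).

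The same construct in OCI-Ly10 gave a cytosolic median of 0.15 over its 3 to 24 h window (3 arrays), and no member passed, where 0.532% of all genes were called. At an unadjusted p under 0.05 there were 9 of 29 cytosolic, 1 of 12 mitochondrial and 2 of 26 factor genes, beside 6.49% of all genes; the mitochondrial and factor shares are near that level. RPS21 was highest at 0.41 ± 0.11 (SE; adjusted p = 0.143), and RPS29 was 0.37 at 3 h, 0.33 at 6 h and 0.13 at 24 h. The lines were compared at the times they share (1.5, 3 and 6 h), a comparison added after the data were seen. OCI-Ly3 exceeded OCI-Ly10 by a median of 0.19 over 29 cytosolic, 0.14 over 12 mitochondrial and 0.08 over 25 factor genes. No member was called, where 0% of 4384 genes were called by limma (0 genes, 108 at an unadjusted p under 0.05), so a difference between the lines was not shown for any gene. The largest was EIF5 at 0.35 ± 0.17 (adjusted p = 0.994). Between 1 to 2 h and 4 to 6 h of induction in OCI-Ly3, no member was called either, beside 0.543% of all genes (1 of 66 members at an unadjusted p under 0.05, beside 4.48% of all genes).

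With IL-10 the called cytosolic genes lay above control and most called factors below it. Over 1 to 96 h (10 arrays) 8 of 28 cytosolic genes rose and none fell, no mitochondrial gene rose and 3 of 12 fell, and 1 of 25 factors rose and 9 fell. These counts stand beside 35.3% of 4383 genes called in this experiment (16.1% higher, 19.2% lower). In either direction 21 of 65 members were called: 8 of 28 cytosolic, 3 of 12 mitochondrial and 10 of 25 factor genes. Those shares are near or below that of all genes. RPS29 ranged from -0.02 to 0.62 (median 0.28), was above 0 on 9 of 10 arrays and rose by 0.29 ± 0.05 (SE; adjusted p = 0.000364). RPS4X ranged from 0.02 to 0.48 (median 0.16), was above 0 on all 10 and rose by 0.21 ± 0.06 (0.00905). RPS21 rose by 0.25 ± 0.06 (0.00385) and RPL22L1 by 0.17 ± 0.06 (0.0315), while RPS6 was at -0.05 and RPL22 at 0.09, both uncalled. Of the called cytosolic genes 6 belong to the small and 2 to the large subunit.

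The falling members were led by EIF4G1 at -0.39 ± 0.10 (SE; adjusted p = 0.00733), MRPL19 at -0.34 ± 0.07 (0.000838) and MRPS27 at -0.32 ± 0.09 (0.0142). MRPL19 ranged from -0.53 to 0.04 (median -0.34) and was below 0 on 9 of 10 arrays. EEF2K, the kinase that stalls elongation by phosphorylating EEF2, ranged from -0.56 to 0.12 (median -0.29) and fell by 0.28 ± 0.06 (0.00162). EIF4EBP1 ranged from -0.82 to 0.27 (median -0.13) and fell by 0.27 ± 0.06 (0.00282). Both measured subunits of EIF2 fell, EIF2S1 by 0.16 ± 0.05 (0.0246) and EIF2S2 by 0.23 ± 0.07 (0.0187), as did EIF2B1 of its exchange factor and EIF2AK3, the kinase (PERK) that phosphorylates EIF2 in response to unfolded protein. None of the 4 EIF3 subunits was called. EIF6 rose by 0.25 ± 0.05 (0.00144), with arrays from -0.06 to 0.60 and 9 of 10 above 0. Replicate numbers pair the IL-10 arrays, and with the replicate block all 21 calls remained and 7 members joined them. That made 28 of 65 members called, a share near the 43.6% of all genes. The 7 were EEF1A1 at 0.16 (0.0128), EEF1B2 at 0.16 (0.0114), RPLP1 at 0.18 (0.0244), RPS18 at 0.16 (0.0359) and RPS3A at 0.12 (0.0332), above control, and EIF3B at -0.15 (0.0336) and MRPL11 at -0.21 (0.0261), below it.

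The IL-10 arrays fall into 3 runs whose class medians differ: cytosolic 0.00 (second replicates, 4 arrays), 0.15 (48 and 96 h, 2 arrays) and 0.21 (first replicates, 4 arrays), and factors -0.15, -0.19 and 0.06. The same sign in every run was kept by 7 of 8 called cytosolic, 2 of 3 mitochondrial and 4 of 10 factor genes. With the run as a block, 11 of the 21 calls passed (EEF2K, EIF2AK3, EIF4EBP1, EIF4G1, EIF6, MRPL19, MRPS10, RPS21, RPS29, RPS4X and RPS9). These 11 of 65 members are a smaller share than that of all genes, of which 500 of 4383 were higher and 532 lower. Without the 96 h array 8 calls were made. Set against the other 5 experiments, the IL-10 medians were -0.02 for the cytosolic (9 of 28 above 0), -0.06 for the mitochondrial and -0.06 for the factor genes, against -0.02 for all genes, and no cytosolic gene was called. There 4 members were lower and none higher, beside 22.4% of all genes (11.6% higher, 10.8% lower): EEF2K by -0.36 ± 0.08 (SE; adjusted p = 0.00111), EIF4EBP1 by -0.34 ± 0.08 (0.00218), MRPS10 by -0.28 (0.00481) and EIF2S2 by -0.26 (0.0352). The first 3 also passed with the run as a block, and the replicate block added EIF2B1 at -0.21 (0.0115) and EIF4H at -0.22 (0.0375). Of 3106 genes, the run block called 266 higher and 182 lower, and the replicate block 435 and 452.

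Several of these differences lay at the late times. Late (24 to 96 h) minus early (1 to 6 h) IL-10 values differed for 1 of 28 cytosolic genes, 0 of 12 mitochondrial genes and 4 of 25 factors. These 5 of 65 members are a smaller share than the 13.5% of all genes called (7.96% higher, 5.52% lower). RPS15A, of the small subunit, was -0.33 and 0.07 at 1 h, -0.15 and 0.03 at 3 h, -0.05 and -0.06 at 6 h, 0.16 and 0.12 at 24 h, 0.57 at 48 h and 0.44 at 96 h, a difference of 0.47 (adjusted p = 0.0146). Every late value was above every early one. EIF4G1 was -0.84 at 48 h and -1.24 at 96 h against -0.30 to 0.41 at 1 to 6 h, a difference of -0.71 (0.0283). Its 24 h arrays disagreed in sign, at 0.18 and -0.49. EIF4EBP1 was 0.27 and -0.06 at 1 h, -0.17 and -0.43 at 24 h, -0.36 at 48 h and -0.82 at 96 h. Its late minus early difference, which also takes in the 3 and 6 h arrays not listed here, was -0.44 (0.0242). EIF2S2 differed by -0.44 (0.0457) and EEF2K, named after its values were seen, by -0.41 (0.0282). The late times hold both single arrays, of a run of their own: without the 96 h array no member was called, and the calls of RPS15A and EIF4EBP1 were kept under the run block. The replicate block kept all 5 and added EIF3B at -0.34 (0.0411) and MRPS10 at -0.33 (0.0294), beside 441 of 4383 genes higher and 328 lower. The run block called 302 genes higher and 186 lower.

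**Figure D3:**
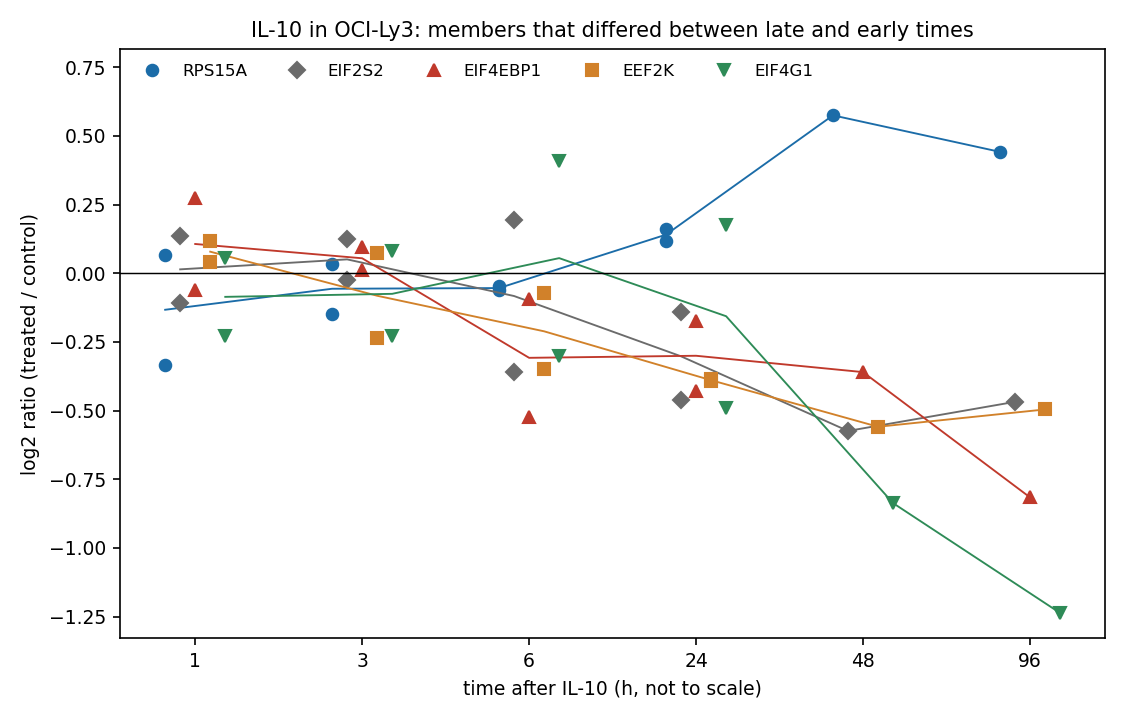
Log2 ratio (treated over control, vertical axis) of 5 members on each IL-10 array of OCI-Ly3 by hours after treatment (horizontal axis, not to scale), with lines through the time point means. RPS15A climbs to 0.57 and 0.44 at 48 and 96 h, and EIF4G1 falls to -0.84 and -1.24; both times have 1 array.

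EIF4EBP1 moved in opposite directions in different treatments. With JAK inhibitor I in OCI-Ly10 it was 0.39 and 0.19 at 3 h and 0.87 and 0.51 at 6 h, above 0 on 4 of 4 arrays, a rise of 0.49 ± 0.10 (SE; adjusted p = 0.00634). With STAT3 siRNA it was -0.01 at 8 h, -0.45 and -0.38 at 24 h and -0.25 and -0.17 at 48 h. Its window mean of -0.31 ± 0.10 (0.0747) did not pass against 0, but did with the replicate block (0.0336). Against the other 5 experiments it was higher with the inhibitor by 0.57 ± 0.10 (0.00231) and lower with the siRNA by -0.39 (0.041); 4.09% (0.966% higher, 3.12% lower) and 2.87% (1.06% higher, 1.8% lower) of all genes were called there. It was the only member called in either of those comparisons without the replicate block. With that block EIF3B at -0.38 (0.0175) joined it for the inhibitor and MRPL19 at -0.38 (0.0243) for the siRNA. Of 3106 genes, 60 were then higher and 168 lower for the inhibitor, and 74 higher and 109 lower for the siRNA. The inhibitor's call passed with the run as a block (0.0107), and the siRNA's did not (0.119).

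Few other members were called in these experiments, whose cytosolic medians were 0.08 with the inhibitor and 0.13 with the siRNA. The inhibitor's window (3 and 6 h, 4 arrays) held 1 of 28 cytosolic genes lower, 1 of 12 mitochondrial genes lower, and 1 of 25 factors lower beside EIF4EBP1, where 3.26% of all genes were called (1.09% higher, 2.17% lower). RPL11 was at -0.27 and -0.08 at 3 h and -0.26 and -0.78 at 6 h, and fell by 0.35 ± 0.09 (SE; 0.0499). EIF3B, an EIF3 scaffold, was at -0.16 and -0.29 at 3 h and -0.24 and -0.99 at 6 h, and fell by 0.42 (0.0345). Both means lean on the second 6 h array. Without the first 3 h array no member passed, and EIF4EBP1 alone kept its call under the run block. With the replicate block all 4 calls remained. RPL22L1 at 0.29 (0.0422), RPS9 at 0.27 (0.0371) and EIF2S1 at -0.26 (0.0379) joined them, beside 92 of 4480 genes higher and 168 lower.

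Without the replicate block, 3.31% of all genes were called with STAT3 siRNA (2.05% lower) over 24 and 48 h (4 arrays). MRPL19, of the large mitochondrial subunit, was then the only member called. It was -1.02 at 8 h, -0.72 and -0.16 at 24 h and -0.80 and -0.59 at 48 h, below 0 on every array, and fell by 0.57 ± 0.10 (SE; adjusted p = 0.00562; 0.0225 with the run as a block). That call was lost without the first 24 h array. With JAK inhibitor I it was -0.11 and 0.05 at 3 h and -0.64 and -0.96 at 6 h, and fell by 0.42 ± 0.10 (0.0283). Across all 40 arrays it was above 0 on 12, 6 of them among the 7 arrays of the super-repressor window in OCI-Ly3. MRPL19 has 1 probe, as do EIF4EBP1, EIF4G1, EEF2K, RPL9, RPL11, RPL22L1 and RPS15A. The other 11 mitochondrial genes passed in neither OCI-Ly10 experiment. With the replicate block 4 further members were called with the siRNA, beside 157 of 4346 genes higher and 260 lower. They were RPS3 at 0.38 (0.0277), EEF1D at 0.32 (0.0289), RPS9 at 0.26 (0.0323) and EIF4EBP1 at -0.31 (0.0336).

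**Figure D4:**
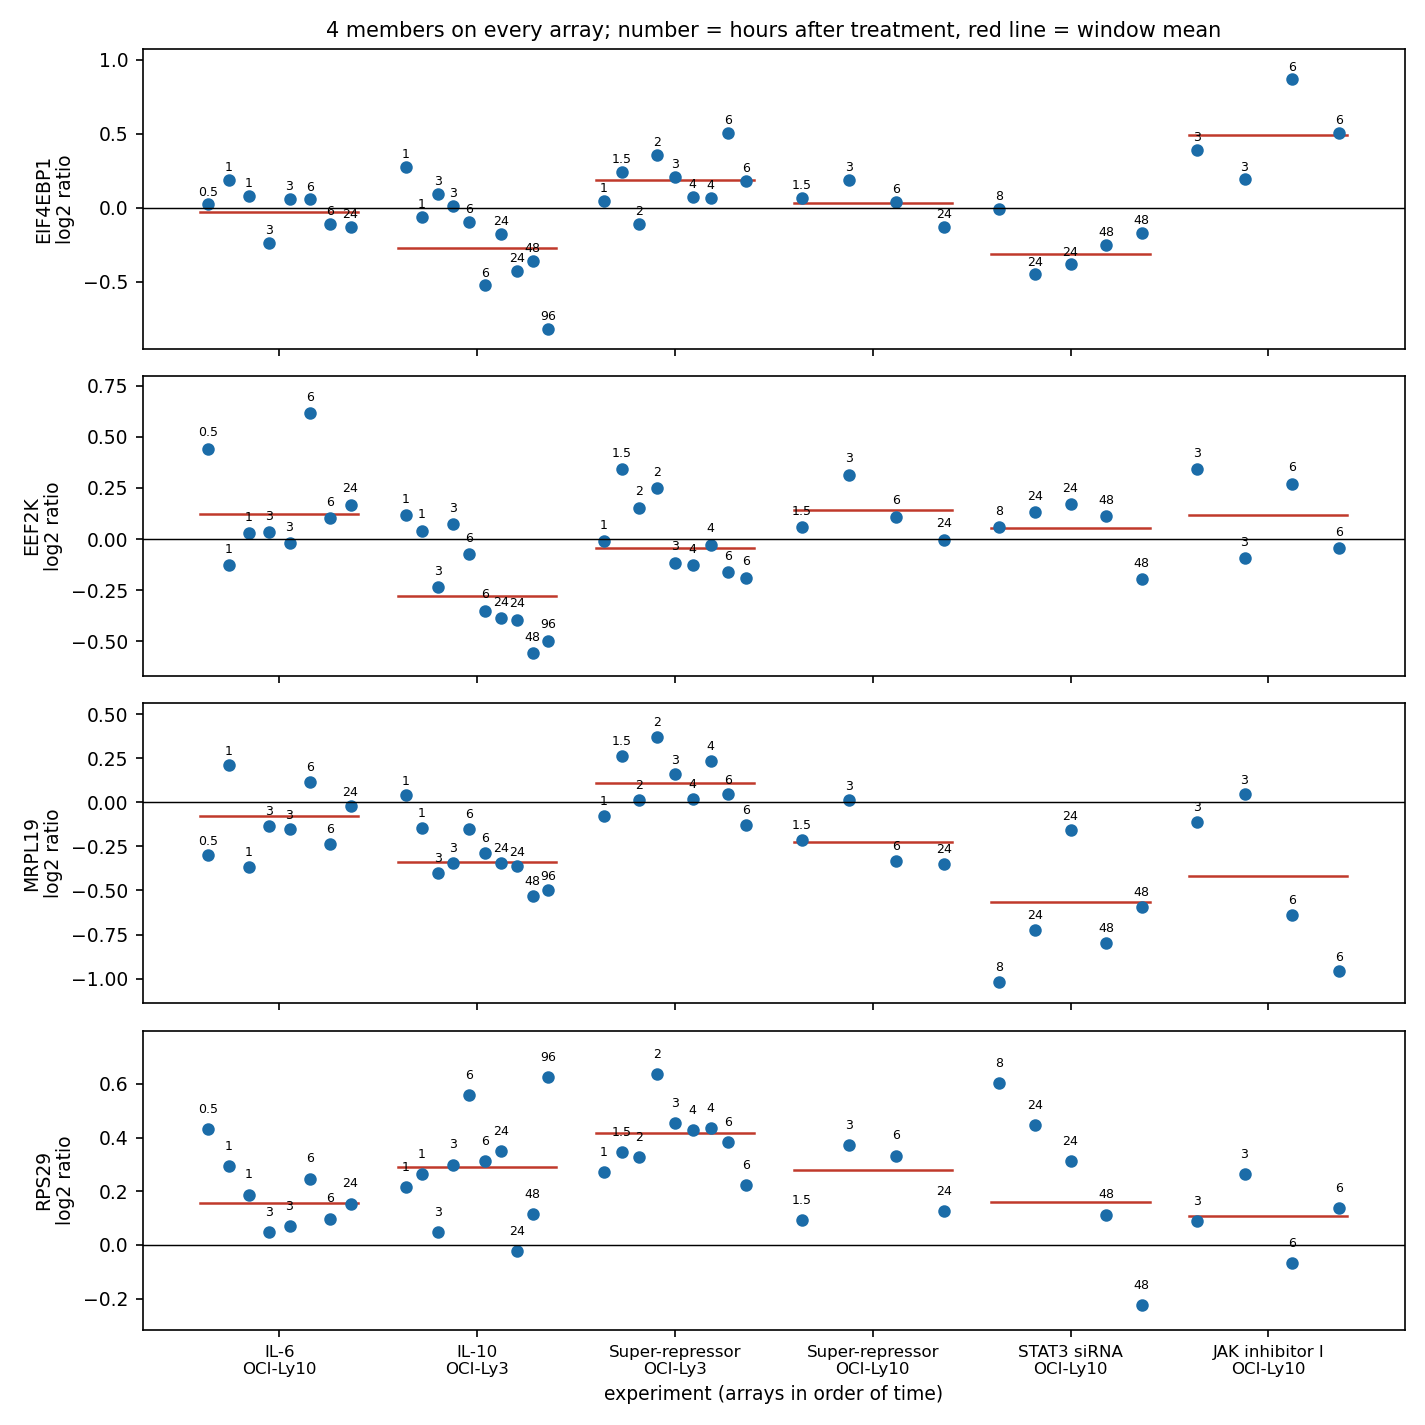
Log2 ratio (treated over control, vertical axes) of EIF4EBP1, EEF2K, MRPL19 and RPS29 on each of the 40 arrays, grouped by experiment and ordered by time; numbers give hours after treatment and red lines the window mean, which leaves out the earliest times of some experiments. EIF4EBP1 is highest with JAK inhibitor I (0.87 at 6 h), MRPL19 lowest with STAT3 siRNA (-1.02 at 8 h), and RPS29 is above 0 on 37 arrays.

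With IL-6 the cytosolic median was 0.09 against -0.01 for all genes, and 24 of 29 cytosolic genes were above 0 beside 47.2%. In its 1 to 24 h window (7 arrays) none of 29 cytosolic, 10 mitochondrial or 23 factor genes passed, where 4.54% of all genes were called (3.48% higher, 1.06% lower). At an unadjusted p under 0.05 there were 8 of 29 cytosolic, 0 of 10 mitochondrial and 3 of 23 factor genes, beside 21.3% of all genes. RPL22L1 was 0.06 to 0.38 (median 0.14) and above 0 on all 7 arrays, as was RPS29 at 0.05 to 0.29 (median 0.15); their means of 0.20 and 0.16 were not called. EIF4G1 ranged from -0.74 to 0.20 (median -0.40) with a mean of -0.36 ± 0.12 (SE; adjusted p = 0.0966). Replicate numbers pair the IL-6 arrays, and with the replicate block 2 of 62 members passed, EIF4G1 (0.0415) and RPS16 at 0.23 (0.0488), a smaller share than the 9.51% of all genes called with that block. Against the other 5 the block called EEF1D at -0.25 (0.0393), beside 12.9% of all genes. No member was called for IL-6 against the other 5 experiments without that block (7.53% of all genes, 4.89% higher and 2.64% lower; 4 of 60 members at an unadjusted p under 0.05, beside 22.7% of all genes). The same held for late minus early IL-6 (0.378% called, with 0.0944% higher; 1 of 61 members unadjusted, beside 6.67%) and for the super-repressor in OCI-Ly10 against the other 5 (0.354% called; 0 of 60 members unadjusted, beside 4.15%).

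Lists of genes of the same machinery outside the symbol rule were read against the share of all genes called in the same window. With IL-10, where 19.2% of all genes fell and 16.1% rose, 6 of 8 measured aminoacyl-tRNA synthetases fell, including LARS1 by 0.54 and TARS1 by 0.36, and their median was -0.29 against -0.02 for all genes. Of 10 ribosome biogenesis genes 4 fell, among them the nucleolar proteins NCL by 0.60 and NOP56 by 0.52. Of 8 genes of mTOR signalling 3 fell (MTOR itself by 0.26) and TSC1, an inhibitor of the pathway, rose by 0.19. With JAK inhibitor I, where 1.09% of all genes rose, 4 of 8 synthetases rose, led by AARS1 at 0.83 and WARS1 at 0.64, and MTOR fell by 0.38. With the super-repressor in OCI-Ly3, 2 of 5 other TOP messengers rose, BTF3 by 0.31 and TPT1 by 0.28, while 1 of 10 biogenesis genes, 1 of 8 mTOR genes and 1 of 8 synthetases rose, shares near the 9.16% of all genes. With STAT3 siRNA, where 3.31% of all genes were called, 1 of 10 biogenesis and 1 of 8 mTOR genes passed: NHP2, a ribosomal RNA modification protein, rose by 0.42 and PDCD4, an inhibitor of translation initiation, by 0.30. With IL-6, 1 of 10 biogenesis genes, NCL, fell by 0.80 beside 1.06% of all genes, and no listed gene was called with the super-repressor in OCI-Ly10. The 3 measured release and recycling factors passed in no window.

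Cell type markers were limited to the ratios, which do not show whether a gene is expressed, so the labelled B cell identity could not be checked by level. With IL-10, 2 of 7 B cell markers rose and 2 fell (CD72 by 0.46 and CD79A by 0.34 at the extremes), and 1 of 10 T and NK cell markers rose and 1 fell, as did 2 and 1 of 5 myeloid markers, beside 16.1% of all genes higher and 19.2% lower. With the super-repressor in OCI-Ly3, PAX5 fell by 0.22 and CD5 by 0.24, and no myeloid marker was called, so 1 of 7 B cell and 1 of 10 T and NK cell markers fell beside 4.87% of all genes. LCK rose with IL-6 and CD79B with JAK inhibitor I, and no marker was called with STAT3 siRNA or in the OCI-Ly10 super-repressor window. Their part in the members' results was not tested.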

How the data were processed

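RNA of treated and control cells was compared on 40 two-colour arrays. The deposited values are log2 ratios of Cy5 (treated) over Cy3 (control), per the labels, with the base not stated and taken as 2; the sources used here do not give normalization or filters. Values run from -7.87 to 5.81, 12.6% are blank, and arrays hold 8862 to 14947 of 15246 probes; intensities were not used here, so precision rests on the number of arrays. Arrays were median-centred (medians -0.03 to 0.01) and probes averaged per gene, by the platform annotation's symbols. Probes of 1 gene could differ in sign. With IL-10 the 9 probes of EEF1A1 ran from -0.20 to 0.25, and the 4 of RPS29 from 0.21 to 0.34.

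limma 3.58.1 (R 4.3.3) fitted 1 mean per experiment and time point (26 groups) over all arrays. Genes with every time point and at least 75% of a comparison's arrays were tested, with Benjamini-Hochberg adjustment over all of them and a threshold of 0.05. Windows were 1 to 24 h (IL-6), 1 to 96 h (IL-10), 2 to 6 h and 3 to 24 h (super-repressor in OCI-Ly3 and OCI-Ly10), 24 and 48 h (siRNA), and 3 and 6 h (inhibitor). The test against 0 leaves out the controls' own spread. The fit was tested on simulated data.

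The members, lists and tests were chosen with earlier results of these data known. Named were, per window and class, up to 4 highest and lowest called members of 1 sign on every array; up to 3 for other comparisons; a fixed set of regulators and paralogs; and up to 2 called genes per list. Further names were chosen after their values were seen. Replicate numbers deviated together for IL-6 (correlations of 0.185 to 0.229 over 3 pairs) and IL-10 (0.393 to 0.59 over 4 pairs), not for the super-repressor in OCI-Ly3 (-0.368 to 0.336). The siRNA and inhibitor arrays, with 2 pairs each, gave 1 correlation each, of 0.254 and 0.217. Alternatives were a run block, a replicate block, equal spread, no centring, the median of probes, other filters, single-experiment fits and leaving out each array.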

Additional observations from a re-analysis of the deposited data

Results flagged for a closer look

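With IL-10 in OCI-Ly3, 5 of 65 members differed between the late times (24, 48 and 96 h) and the early ones (1, 3 and 6 h). The limma test was of the difference itself, and the share is smaller than the 13.5% of all genes called. RPS15A was higher late by 0.47 (log2; adjusted p = 0.0146). EIF4G1 was lower late by -0.71 (0.0283), EIF4EBP1 by -0.44 (0.0242), EIF2S2 by -0.44 (0.0457) and EEF2K by -0.41 (0.0282). The 48 and 96 h times have 1 array each, in a run of their own, and none of the 5 was called without the 96 h array. The part of the run in these differences was not tested beyond the run block, under which RPS15A (0.034) and EIF4EBP1 (0.0402) passed. Of all 4383 genes that block called 302 higher and 186 lower.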

How the results depend on the processing

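Counts here are of members called by limma in either direction, and no named value that was called changed sign under any alternative. Of all genes, 3301 (IL-6), 4383 (IL-10), 4390 and 4515 (super-repressor in OCI-Ly3 and OCI-Ly10), 4346 (siRNA) and 4480 (inhibitor) were tested. Comparisons against the other 5 tested 3106. All-gene counts were not set beside the single-experiment fits or the fits that leave out 1 array. With the run as a random block the IL-10 window gave 11 calls, the OCI-Ly3 super-repressor window 6 and the inhibitor window 1. Among all genes, those windows had 500 higher and 532 lower, 73 and 30, and 27 and 50, in that order. OCI-Ly3 super-repressor against the other 5 gave 1, siRNA against the other 5 gave 0 and IL-10 late minus early 2. All genes there had 36 and 20, 18 and 29, and 302 and 186. With the replicate block the IL-6 window gave 2, OCI-Ly10 super-repressor 1, siRNA 5 and inhibitor 7. All genes there had 218 higher and 96 lower, 18 and 21, 157 and 260, and 92 and 168, in that order. Against the other 5 IL-6 gave 1, OCI-Ly3 super-repressor 21, siRNA 2 and inhibitor 2. All genes there had 234 and 166, 500 and 268, 74 and 109, and 60 and 168. The replicate block moved no other count of calls by over 1.5 times. With arrays scaled to equal spread the IL-6 window gave 9, OCI-Ly10 super-repressor 11 (cytosolic median 0.21) and inhibitor 7. All genes there had 281 higher and 174 lower, 124 and 114, and 91 and 141, in that order. The IL-6 share of members is near that of all genes. Inhibitor against the other 5 gave 2, beside 52 genes higher and 140 lower. IL-10 late minus early gave 0, beside 193 and 102. Fits on 1 experiment alone gave 1 for IL-6, 10 for IL-10, 0 for IL-10 late minus early, 14 for OCI-Ly3 super-repressor, 0 for siRNA and 0 for inhibitor; for the OCI-Ly10 super-repressor no residual degrees of freedom were left. The causes were not tested.

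Leaving out 1 array gave 0 to 1 calls for IL-6, 8 to 22 for IL-10, 12 to 30 for OCI-Ly3 super-repressor, 0 for OCI-Ly10 super-repressor, 0 to 1 for siRNA and 0 to 4 for inhibitor. Against the other 5 it gave 3 to 7 for IL-10, 2 to 27 for OCI-Ly3 super-repressor, 0 to 1 for siRNA, 1 to 2 for inhibitor and 0 for the rest. It gave 0 to 6 for IL-10 late minus early, 22 to 26 for the mean of 6 experiments, and 0 for the other late minus early comparisons and for the line difference; a time point left with 1 array is assumed to vary like the others. Of 103 named values (46 called), 21 lost their call with the run block, 7 with equal spread, 2 with the median of probes, 1 with no share of arrays required and none without centring or with the replicate block. Fits on 1 experiment alone took the call from 13 of 21 called values, and leaving out 1 array from 155 of 1033. Calls were gained by 6 values with the replicate block, 5 with equal spread, 1 with the median of probes, 1 in single-experiment fits and 2 when leaving out 1 array. Signal over background is unknown, so weak probes cannot be told from strong ones.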
